A study of Drosophila melanogaster with 9 samples.

Results

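The genes described here encode the proteins of the cytosolic ribosome of Drosophila melanogaster, together with their paralogues. They were chosen by name and not by any measured value: protein-coding genes of the deposited count table whose symbol starts with RpL or RpS and a digit, plus RpLP0, RpLP1, RpLP2, RpLP0-like and sta. That gave 92 of the 14865 genes listed, and all 92 passed the low-count filter and were tested. In 13 cases the symbol belongs to a paralogue with fewer counts than its partner, called a minor paralogue below, and the other 79 genes are called main copies, 47 of the large and 32 of the small subunit. RpL7-like was not analysed here.

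The libraries were made from poly(A) RNA of whole flies, 8 days after they emerged as adults, all kept on food of 8% yeast and 9% sugar. There were 4 libraries of E78A mutant flies, whose genotype the authors' sample sheet writes as E7818.37, and 5 of control flies, written as w1118. E78A is a nuclear receptor, a product of the gene Eip78C, while the altered stretch of the gene, the sex of the flies and the number of flies per library are not stated. The study's question was the role of this receptor in taking up dietary fat and in setting body fat. Since separate cultures are not recorded, p-values reflect only the variation among these libraries, part of which may be technical.

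Each ribosome carries a single copy of nearly every one of these proteins, so cells make them in matched amounts, and the genes are among the most strongly transcribed of all. In flies, losing a copy of many of them gives the Minute phenotype of slow development and short, thin bristles. Several fly ribosomal proteins are encoded by a pair of genes, of which a copy is used widely and its partner mainly in the gonads. Among the paralogues, RpL24-like and RpLP0-like, correspond to yeast proteins that help assemble the large subunit and are not parts of the finished ribosome.

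Library totals ran from 16556267 to 19093675 counts. Values are given as CPM, counts per 1000000 counts of a library after scaling by edgeR's TMM factors, or as TPM, counts per kilobase of exon scaled to that same total, which is the scale used to compare genes. Eip78C itself (chromosome 3L, 21226609 to 21266503) was at 8.86 to 12.4 CPM in E78A mutant libraries and 8.57 to 15.6 CPM in control libraries (log2 fold change 0.00467, SE 0.18, edgeR adjusted p = 0.993), so its whole-gene count does not check the genotype labels. For 4 libraries the title and the genotype tag name opposite genotypes, and the sample sheet disagreed with 0 titles, which were followed. On the first principal component, computed over the tested genes, control replicate 3 lay farthest out, at -32.5 against -16.2 to -7.24 in the other controls and 17.4 to 23.9 in E78A mutants. Within the members, control replicate 2 and E78A mutant replicate 4 stood apart from their groups. In bulk RNA of whole flies, fewer cells of a type and less RNA per cell cannot be told apart.

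The main copies were all at high levels. Their mean over all libraries ran from 388 to 3469.8 TPM, with quartiles of 847 and 1342 TPM and a median of 1064 TPM. Among 12694 protein-coding genes ranked by TPM, 27 main copies were in the top 100 and 60 in the top 200, and the lowest stood at rank 446. All members together took 4.38% to 5.16% of a library's counts.

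At the top of the order was RpL41, which encodes one of the smallest known proteins, at 3677 ± 497 TPM in E78A mutants (SD, n = 4) and 3304 ± 380 TPM in controls (SD, n = 5). The acidic stalk proteins RpLP1 and RpLP2, which recruit elongation factors to the ribosome, followed. RpLP1 was at 2116 ± 151 TPM in E78A mutants and 2193 ± 40.5 TPM in controls, and RpLP2 at 2042 ± 168 TPM in E78A mutants and 2003 ± 127 TPM in controls. Next came RpS27A, a ribosomal protein made as a fusion with ubiquitin, at 2061 ± 103 TPM in E78A mutants and 1911 ± 68.5 TPM in controls, and RpL27A at 1883 ± 121 TPM in E78A mutants and 1759 ± 103 TPM in controls. Every library of RpL41 was above every library of the other 4 genes named here, and among those 4 the ranges of neighbours in the order overlapped. The lower end held RpL28, RpL22, RpS14a, RpL38 and RpS21. RpS21, a small-subunit protein, was lowest at 402 ± 46.3 TPM in E78A mutants and 377 ± 26.3 TPM in controls. RpS14a was at 462 ± 45.3 TPM in E78A mutants and 456 ± 28.3 TPM in controls, but it has a near-identical copy, so part of its reads could have been counted elsewhere or dropped. Exon lengths join all annotated transcripts, so a gene with long annotated exons, such as RpL5 with 3835 bases, comes out lower on this scale than by its main transcript alone.

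**Figure D1:**
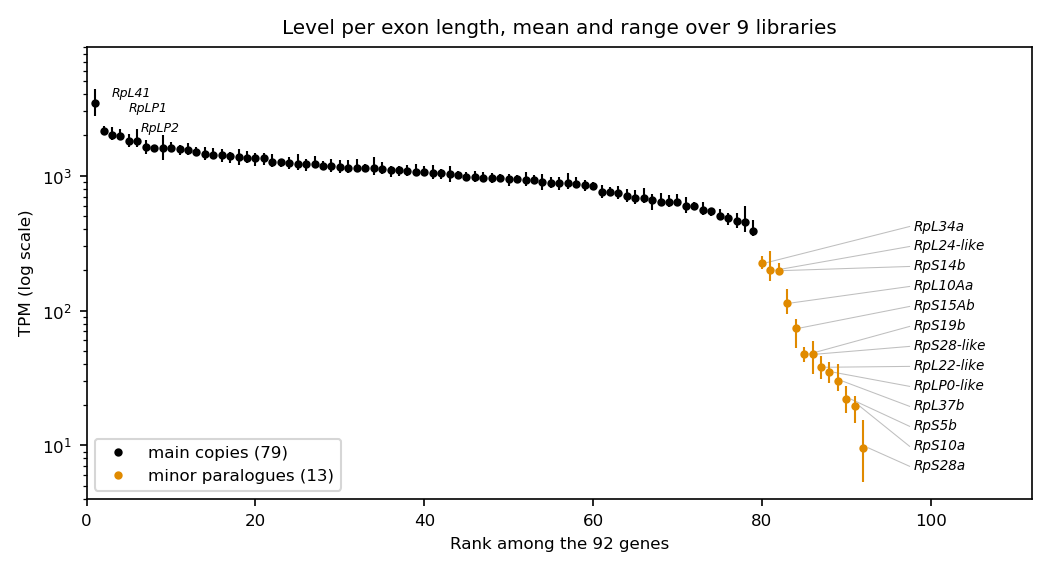
Mean TPM (log axis) of the 92 genes in order of level, with vertical lines from the lowest to the highest of 9 libraries, main copies in black and minor paralogues in orange. The 79 main copies run from 388 to 3469.8 TPM and the 13 minor paralogues lie below them, from 9.60 to 227 TPM.

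In E78A mutants the ribosomal protein genes as a group were at or slightly above their control level, and no member passed edgeR's test. Summed over the main copies, E78A mutant replicates 1 to 4 held 48436, 48199, 49857 and 44234 CPM, and control replicates 1 to 5 held 44497, 48407, 43416, 43484 and 43314 CPM. The groups overlapped: control replicate 2 was as high as the mutants, and E78A mutant replicate 4 was as low as the other controls. The means were 47682 ± 2412 CPM in E78A mutants (SD, n = 4) and 44624 ± 2168 CPM in controls (SD, n = 5), a ratio of 1.07. The difference was of the size of the spread, and as a value summed over chosen genes it was given no test.

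**Figure D2:**
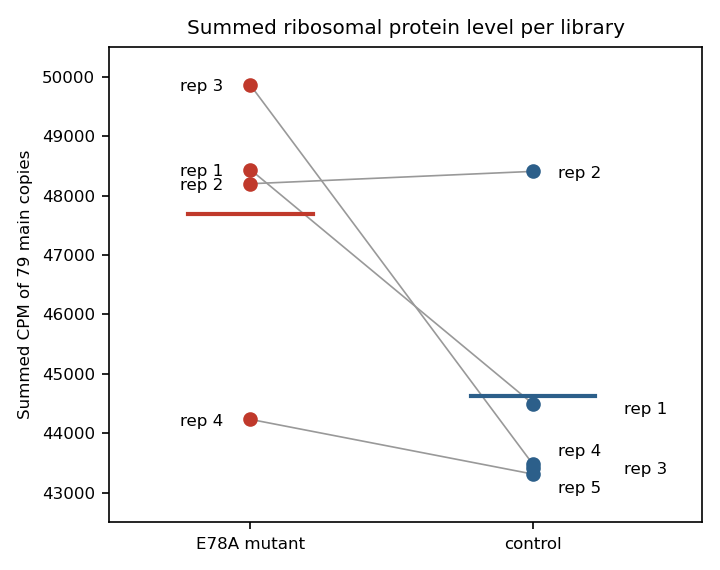
Summed CPM of the 79 main copies in each library, E78A mutant (red) and control (blue), with the group mean as a bar and grey lines joining libraries with the same number in the authors' sample sheet. The vertical axis does not start at 0. E78A mutant replicate 4 lies among the lower controls and control replicate 2 among the higher mutants.

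The numbers of the sample sheet pair 4 mutant with 4 control libraries, and control replicate 3 has no partner. Within pair 1 the summed main copies were at 48436 CPM in the E78A mutant and 44497 CPM in the control, and 76 of 79 main copies were higher in the mutant. In pair 2 the values were 48199 CPM in the E78A mutant and 48407 CPM in the control, and 32 of 79 were higher. In pair 3 they were 49857 CPM in the E78A mutant and 43484 CPM in the control, with 78 of 79 higher, and in pair 4 44234 CPM in the E78A mutant and 43314 CPM in the control, with 52 of 79 higher. The log2 ratios of the pairs, 0.122, -0.00621, 0.197 and 0.0303, thus differed from pair to pair by more than their mean size.

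Gene by gene the fold changes were small and alike. Of the 79 main copies 76 had a log2 fold change above 0, with a median of 0.10, a change of 1.07-fold, while 49.5% of all 13274 tested genes were above 0, with a median of -0.00239. The members share library-wide deviations, so these 79 signs are not 79 separate observations. With the libraries grouped by genotype tag in place of title, the median over all members was -0.0105, against 0.10 by title. By title, the log2 fold changes of the main copies lay between -0.05 (RpLP1) and 0.20 (RpL3), and 60 of the 79 were between 0.05 and 0.15. With edgeR's quasi-likelihood test and Benjamini-Hochberg adjustment over all tested genes, 0 of the 92 members were called, while 1.63% of all tested genes were (0.708% higher and 0.927% lower in E78A mutants). The adjusted p of the members ran from 0.154 to 0.966. At an unadjusted p under 0.05 there were 5 members, 4 above 0 and 1 below, against 15.1% of all tested genes. Single libraries set that number: it was 29 without control replicate 2, 13 without E78A mutant replicate 4 and 1 without E78A mutant replicate 3, each time with 0 members called. The shares of members were 31.5%, 14.1% and 1.09% in these fits, against 18.8%, 12.6% and 11.9% of all tested genes. With the sample sheet's pairs as a block, 0 members were called, against 3.79% of tested genes, and 10 had an unadjusted p under 0.05, against 17.8%. Standard errors of the main copies ran from 0.06 to 0.11, and their 95% intervals together spanned log2 values from -0.19 (RpLP1) to 0.40 (RpL38), that is, from 1.14-fold lower to 1.32-fold higher.

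The medians were alike in both subunits and on all chromosome arms. The 47 main copies of the large subunit had a median log2 fold change of 0.10 with 45 above 0, and the 32 of the small subunit had 0.11 with 31 above 0. By arm the medians were 0.10 on X (14 genes), 2L (17), 2R (17) and 3L (14), 0.11 on 3R (16) and 0.12 for RpS3A, the main copy on chromosome 4. The medians of all tested genes on the same arms lay between -0.03 (chromosome 4) and 0.02 (X).

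**Figure D3:**
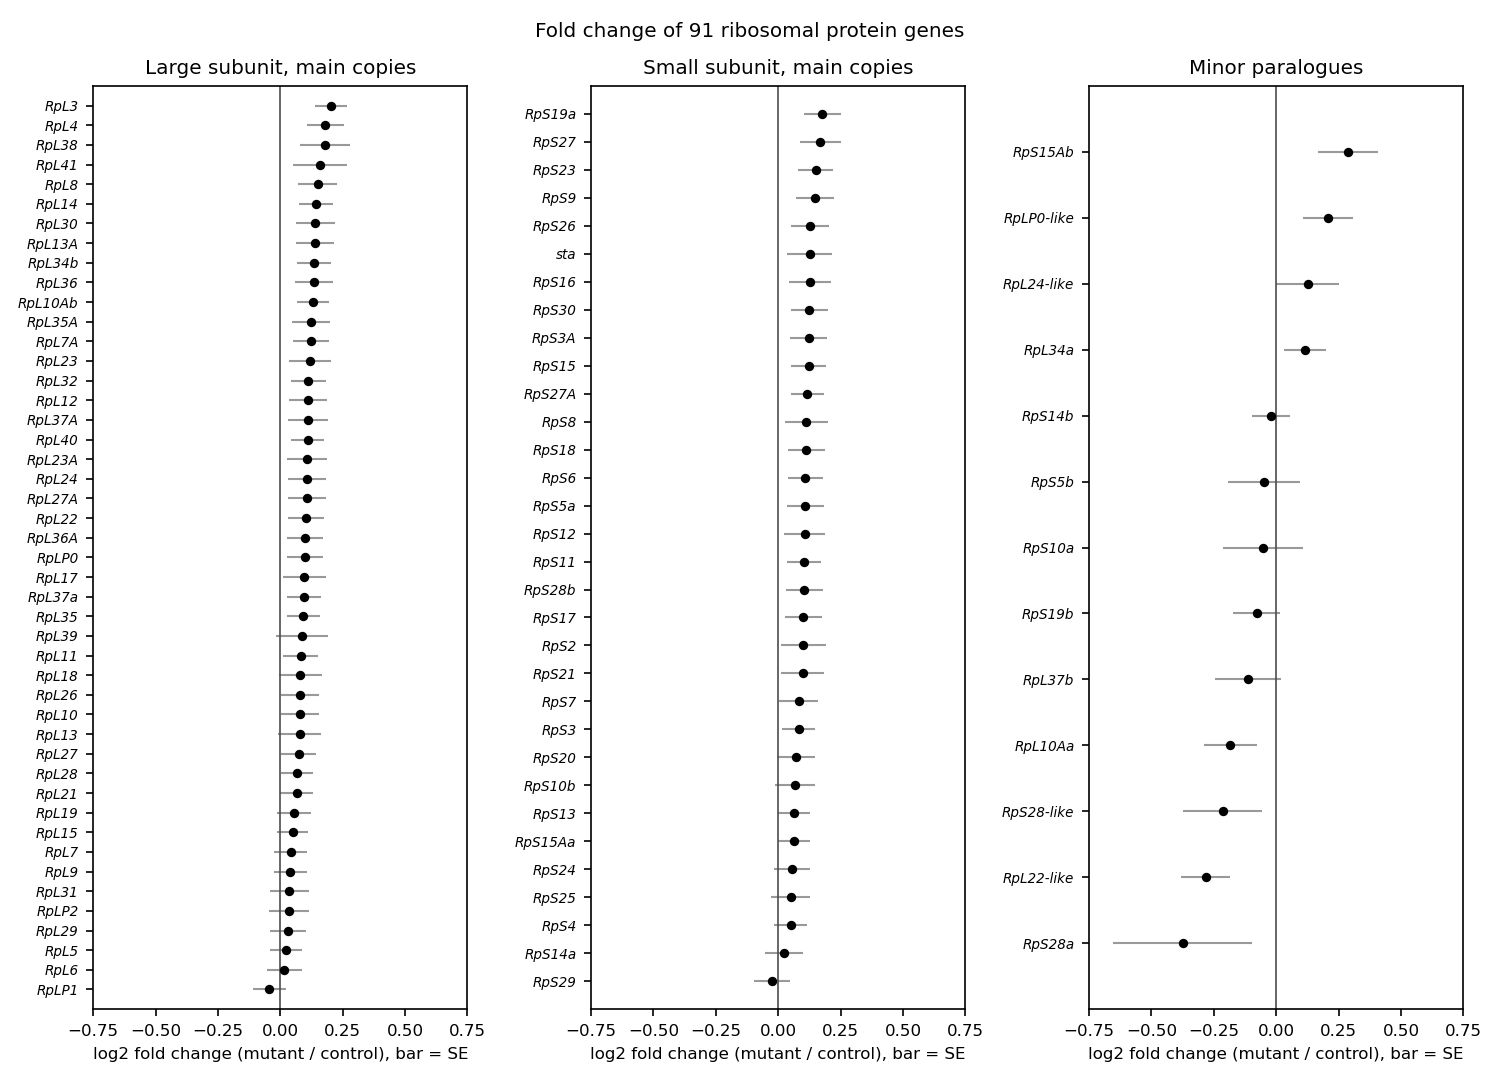
Log2 fold change (E78A mutant over control) of 91 of the 92 genes from edgeR, with bars of 1 SE, for the main copies of the large and the small subunit and for the minor paralogues. The main copies lie in a band near 0.10 and the minor paralogues scatter from -0.37 to 0.29.

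RpL3, a large-subunit protein that reaches close to the site of peptide bond formation, had the highest fold change of the main copies and the smallest p of all members. It held 1382, 1430.0, 1453 and 1353 CPM in E78A mutant replicates 1 to 4, against 1252, 1264, 1174, 1215 and 1193 CPM in control replicates 1 to 5. The groups did not overlap, with the lowest mutant above the highest control. The log2 fold change was 0.20 (SE 0.06, 95% interval from 0.06 to 0.34, edgeR adjusted p = 0.154), and over the alternatives its adjusted p ran from 0.0151 to 0.9995. That upper end was the same for every named member. For each member that changed sign under the grouping by genotype tag, it came from that grouping, which called 0 genes. For RpL3 the edgeR adjusted p was 0.103 with the sample sheet's pairs as a block and 0.336 without E78A mutant replicate 3. DESeq2 on the same counts called it (log2 fold change 0.21, SE 0.06, adjusted p = 0.0151), the 1 member it called, against 1.58% of genes called higher by that test. The authors' deposited table also called RpL3 and no other member, at 0.20 on the log2 scale (SE 0.05, adjusted p = 0.00692), and held 1.64% of its genes as higher. RpL3 (FBgn0020910) lies on 3R at 11221894 to 11225173, plus strand, holds 4 small nucleolar RNA genes and lies opposite the non-coding gene CR31144.

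RpL10Ab was the other member whose groups did not overlap. It held 650, 621, 676 and 640 CPM in E78A mutant replicates 1 to 4, against 592, 613, 582, 598 and 567 CPM in control replicates 1 to 5 (log2 fold change 0.13, SE 0.06, edgeR adjusted p = 0.361). These 2 members of 92 compare with 2.79% of all tested genes whose mutant libraries were all above the controls, and 0 members, against 3.37% of tested genes, had all mutant libraries below the controls. RpL4, a large-subunit protein that lines the exit tunnel of the new peptide, was at 1181 ± 71.8 CPM in E78A mutants and 1043 ± 62.6 CPM in controls (0.18, SE 0.07, edgeR adjusted p = 0.281). RpS19a was at 528 ± 23.9 CPM in E78A mutants and 467 ± 33.1 CPM in controls (0.18, SE 0.07, edgeR adjusted p = 0.284). Both overlapped through control replicate 2 and E78A mutant replicate 4, and for RpL4 control replicate 1 also lay above that mutant library. Others with small p were RpL14 (0.14), RpS23 (0.15), a protein of the decoding site, and RpS27 (0.17), with edgeR adjusted p from 0.342 to 0.352.

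Members known for other roles, or placed at known sites of the ribosome, spanned the range of the main copies, with RpL3 and RpL4 at its top and RpLP1 at its bottom. RpS6, the substrate of S6 kinase, held 781, 775, 781 and 692 CPM in E78A mutant replicates 1 to 4, against 675, 769, 694, 694 and 680.2 CPM in control replicates 1 to 5 (log2 fold change 0.11, SE 0.07, edgeR adjusted p = 0.512). Its 1 low mutant and 1 high control are the libraries that stand apart in the sum. RpS3, at the entry of the messenger channel, had 0.08, and sta, the fly RpSA named for the stubarista phenotype, had 0.13. RpL40, the other ubiquitin fusion, had 0.11 and RpS27A 0.12. In the stalk, the base protein RpLP0 had 0.10 and RpLP2 0.04. RpLP1 was at 930.4 ± 46.9 CPM in E78A mutants and 960.0 ± 30.5 CPM in controls (-0.05, SE 0.07, edgeR adjusted p = 0.793). RpS29, a small-subunit protein, was also below 0 (-0.02).

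Expressed as a share of the summed main copies of the same library, which takes out the deviation common to all of them, few genes stood apart. RpL3 made up 2.95% ± 0.0869 of the sum in E78A mutants and 2.74% ± 0.0818 in controls, and RpS19a 1.11% ± 0.0141 in E78A mutants and 1.05% ± 0.0231 in controls. RpLP1 made up 1.95% ± 0.0548 in E78A mutants and 2.15% ± 0.0473 in controls, and RpS29 1.06% ± 0.0388 in E78A mutants and 1.15% ± 0.0224 in controls. For these 4 main copies the groups did not overlap, nor did they for the minor paralogue RpS14b, which amounted to 0.137% to 0.143% of the sum in E78A mutants and 0.146% to 0.170% in controls. The same ratio kept the groups apart for 1.22% of all tested genes with mutants higher and for 5.34% with mutants lower.

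The main copies moved together from library to library, within each genotype as well as between them. In E78A mutant replicate 4, 2 of 79 main copies were above their mean over the mutant libraries, with a median deviation of -0.11 on the log2 CPM scale. In E78A mutant replicate 3, 68 of 79 were above it (0.06). In control replicate 2, 78 of 79 were above their control mean (0.12), against 9 to 36 of 79 in the other controls. The median deviation of all tested genes from their mean over 9 libraries was between -0.00520 and 0.00739 in each library. Within groups, the median SD of a main copy was 0.0887 on the log2 CPM scale, against 0.18 for all tested genes, and it was 0.0448 once each library's median deviation was taken off. The tested genes include ones with far fewer counts than the main copies, whose lowest count in a library was 2989. The comparison with all tested genes was not matched for level.

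**Figure D4:**
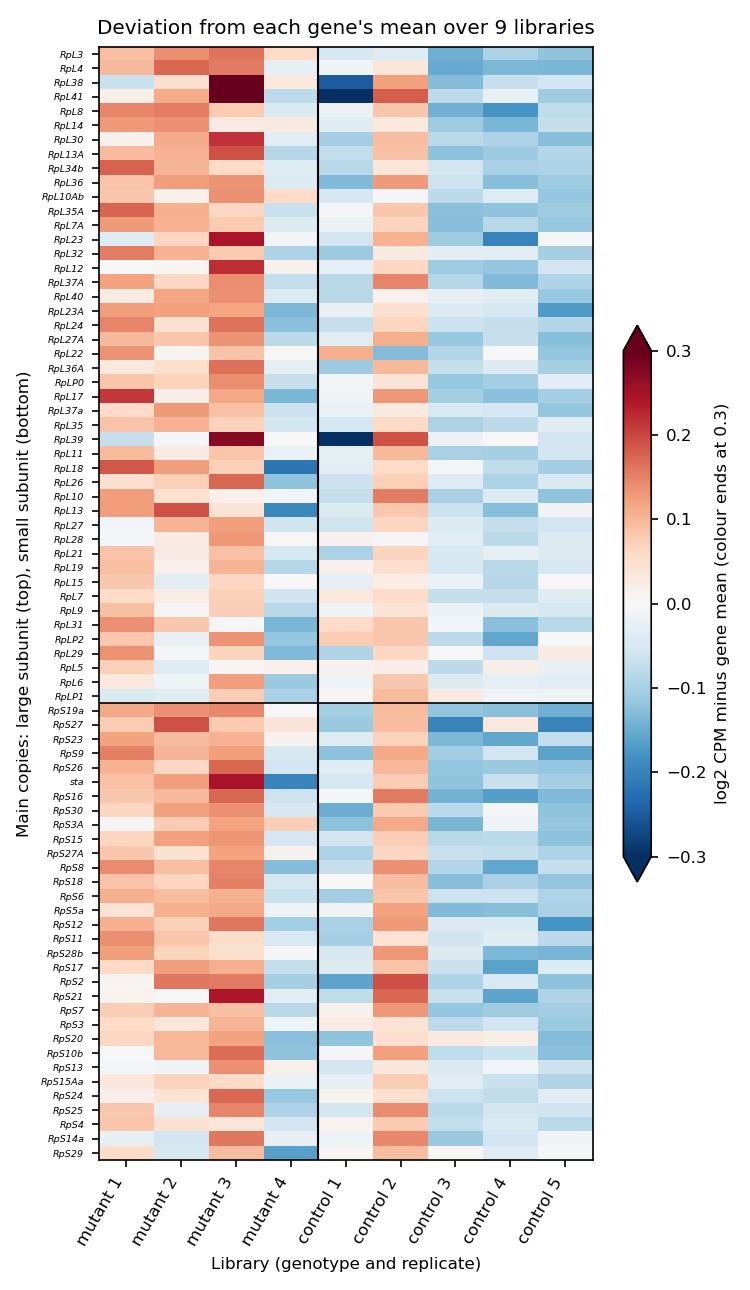
Log2 CPM of 78 of the 79 main copies (rows, large subunit above, small subunit below, ordered by fold change) minus each gene's mean over 9 libraries, with E78A mutant libraries on the left and controls on the right. Columns are nearly of a colour from top to bottom: of all 79 main copies, 70, 67 and 78 are above their mean in E78A mutant replicates 1 to 3 and 13 in replicate 4, against 75 in control replicate 2 and 2 to 15 in the other controls.

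A few main copies deviated more than the others in single libraries. The small RpL41 and RpL39 and the longer RpL38 were highest in E78A mutant replicate 3, by 0.31, 0.27 and 0.37 above their log2 CPM means, and lowest in control replicate 1, by -0.33, -0.31 and -0.25. E78A mutant replicate 3 was also the library with the highest summed main copies (49857 CPM). Control replicate 1 (44497 CPM) was not the lowest in that sum. RpL39, RpL5, RpS3A and RpS29 were named after their values had been seen. Across the 79 main copies, the SD within groups had a Spearman rho of -0.16 with exon length, a weak relation over genes that share the same 9 libraries.

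The 13 minor paralogues behaved less uniformly. Their median log2 fold change was -0.05, with 4 above 0 and 9 below. None passed the test (edgeR, 0 of 13 called, against 1.63% of all tested genes). At an unadjusted p under 0.05 there were 2 of the 13, against 15.1% of all tested genes. The 95% intervals of the minor paralogues ran from -0.98 to 0.55, wider than those of the main copies. Their counts were lower, down to 17 counts in a library for RpS28a. Summed, they were at 422 ± 23.3 CPM in E78A mutants and 416 ± 18.0 CPM in controls.

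RpL22-like, which in flies is enriched in the testis, had the smallest p of them. It held 27.6, 22.6, 21.2 and 24.1 CPM in E78A mutant replicates 1 to 4, against 30.3, 27.0, 33.4, 27.6 and 27.0 CPM in control replicates 1 to 5. E78A mutant replicate 1 overlapped the lower controls. The log2 fold change was -0.28 (SE 0.10, 95% interval from -0.50 to -0.07, edgeR adjusted p = 0.2002). Its widely used partner RpL22 was at 317 ± 14.3 CPM in E78A mutants and 295 ± 20.6 CPM in controls (0.10, SE 0.07, edgeR adjusted p = 0.551). RpL22-like thus amounted to 6.57% to 8.26% of the RpL22 count in E78A mutants and 9.09% to 11.7% in controls, and these ranges did not overlap.

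RpL10Aa, set against RpL10Ab, also had ranges that did not overlap. Its count was 6.86% to 7.58% of its partner's in E78A mutants and 8.03% to 11.5% in controls, with 47.5 ± 2.31 CPM in E78A mutants and 53.9 ± 8.31 CPM in controls (log2 fold change -0.18, SE 0.11, edgeR adjusted p = 0.452). For RpS19b, a germline copy in flies, the share of RpS19a was 3.15% to 3.51% in E78A mutants and 3.52% to 4.63% in controls, with a log2 fold change of -0.08 (SE 0.09, edgeR adjusted p = 0.741) for RpS19b itself. In the opposite direction, RpS15Ab amounted to 6.34% to 6.79% of RpS15Aa in E78A mutants and 4.21% to 6.31% in controls, a difference of 0.24 in log2 ratio that was 0.15 without control replicate 1. RpS15Ab held 33.6, 36.8, 34.2 and 32.5 CPM in E78A mutant replicates 1 to 4, against 21.4, 34.1, 31.9, 27.6 and 25.6 CPM in control replicates 1 to 5 (log2 fold change 0.29, SE 0.12, edgeR adjusted p = 0.289). Its mutant libraries lay close together and 1 control reached them. With the sample sheet's pairs as a block RpS15Ab had an edgeR adjusted p of 0.0704. Ratios of this kind part the groups for many genes. Set against the same partner, 7.34% of all tested genes had every mutant below every control for RpL22, 9.64% for RpL10Ab and 9.25% for RpS19a, and 1.72% had every mutant above every control for RpS15Aa. The ratios were set side by side without a test, and each sets a minor paralogue against a partner that had a log2 fold change above 0.

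**Figure D5:**
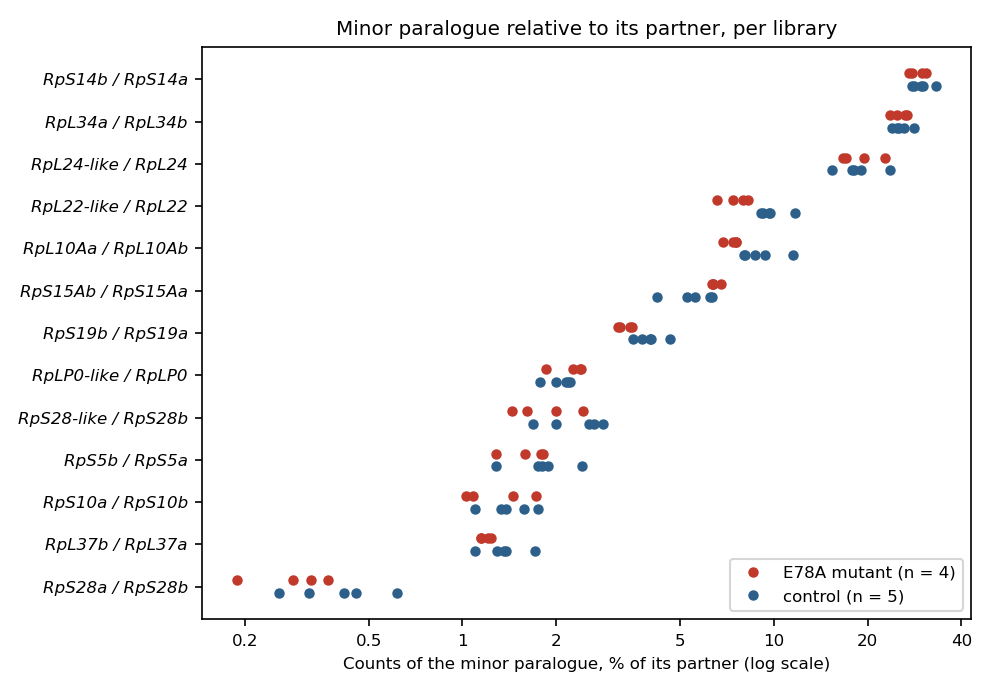
Counts of each minor paralogue as a percentage of its partner's counts in the same library (log axis), for 4 E78A mutant (red, upper) and 5 control (blue, lower) libraries. RpL22-like, RpL10Aa and RpS19b lie lower in the mutants and RpS15Ab higher without overlap, and the other pairs overlap. Of all tested genes, 7.34% to 9.64% lie lower without overlap against the same 3 partners and 1.72% higher against RpS15Aa.

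For the remaining pairs the ranges overlapped. RpS28a, the weakest member, held 0.189% to 0.369% of the RpS28b count in E78A mutants and 0.257% to 0.618% in controls (log2 fold change of RpS28a -0.37, SE 0.28, edgeR adjusted p = 0.566). RpS28-like held 1.45% to 2.43% of RpS28b in E78A mutants and 1.68% to 2.82% in controls (log2 fold change -0.22), and it shares its strand with CG3769, so some of its reads may belong to that gene. RpL37b held 1.14% to 1.24% of RpL37a in E78A mutants and 1.10% to 1.71% in controls, and RpS10a 1.02% to 1.72% of RpS10b in E78A mutants and 1.10% to 1.75% in controls. RpS5b, the germline partner of RpS5a in flies, held 1.28% to 1.81% of it in E78A mutants and 1.28% to 2.41% in controls. RpL34a, at 23.7% to 26.7% of RpL34b in E78A mutants and 23.9% to 28.3% in controls, had a log2 fold change of 0.12, close to the 0.14 of RpL34b. RpS14b, which lies next to RpS14a on X and encodes the same protein, held 27.3% to 30.8% of it in E78A mutants and 27.9% to 33.2% in controls. The log2 fold changes of this pair were -0.02 for RpS14b and 0.02 for RpS14a, and reads that fit both copies make each value uncertain.

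The 2 paralogues related to assembly factors had log2 fold changes above 0, and that of RpL24-like was -0.01 without E78A mutant replicate 3. RpLP0-like was at 20.4 ± 2.34 CPM in E78A mutants and 17.6 ± 1.52 CPM in controls (log2 fold change 0.21, SE 0.10, edgeR adjusted p = 0.368). RpL24-like held 87.6, 79.9, 118 and 82.9 CPM in E78A mutant replicates 1 to 4, against 80.1, 74.9, 78.9, 104 and 83.3 CPM in control replicates 1 to 5 (0.13, SE 0.13, edgeR adjusted p = 0.674). Its highest library in each group, E78A mutant replicate 3 and control replicate 4, carry the same number in the sample sheet.

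Markers of the testis were mostly below their control level in the mutants, without a call. Of 24, 22 had a log2 fold change below 0, with a median of -0.14, and 0 were called by edgeR, against 1.63% of all tested genes. At an unadjusted p under 0.05 there were 5 of the 24, against 15.1% of all tested genes. The summed level of these markers was 4335 to 4424 CPM in E78A mutants and 4237 to 5781 CPM in controls. Control replicate 3, the highest, also held the highest RpL22-like, RpL10Aa, RpS19b and RpS5b. As a percentage of the partner, these genes, RpS10a and RpS28-like were highest in control replicate 3. The remaining minor paralogues, among them RpL37b and RpS28a, were highest in other libraries on that measure. With the pairs as a block, which leaves control replicate 3 out, ProtB, a sperm chromatin protein, was called (log2 fold change -0.33, edgeR adjusted p = 0.0111), against -0.43 and 0.0624 without the block. It was the 1 testis marker of 24 called, while the block called 3.79% of all tested genes. Germline markers (7, of which bam is also in the testis list) were all below 0, and 0 were called by edgeR. Their sum was 27.0 to 31.3 CPM in E78A mutants and 31.4 to 41.6 CPM in controls, ranges that nearly touched. Taken singly, 0 of the 7 had every mutant below every control, against 3.37% of all tested genes. The part of testis and germline markers in the values of the minor paralogues was not tested. Under the same block 1 of 8 gut markers was called, the amylase gene Amy-p (0.28, edgeR adjusted p = 0.0463), against 0.42 and 0.468 without the block. Marker sums of the other tissues overlapped. Those of the male accessory gland (10 genes) were at 5291 ± 725 CPM in E78A mutants and 5502 ± 1350 CPM in controls (SD, n = 4 and 5). Those of the gut (8) were at 4444 to 6401 CPM in E78A mutants and 4765 to 5999 CPM in controls, and those of the female (5, yolk and eggshell) at 10.3 to 16.6 CPM in E78A mutants and 13.2 to 20.1 CPM in controls.

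Other genes of ribosome production and translation held no call either. Of 34 ribosome biogenesis genes 27 had a log2 fold change above 0 (median 0.07), and the one with the smallest p, CG8549, the fly SBDS that readies the large subunit, was below it at 37.3 ± 1.75 CPM in E78A mutants and 43.2 ± 1.94 CPM in controls (-0.21, SE 0.07, edgeR adjusted p = 0.175). Of 35 translation factors 27 were above 0 (median 0.05), and their summed levels overlapped between the groups. The initiation factor gene eIF3a was at 313 ± 13.2 CPM in E78A mutants and 258 ± 24.3 CPM in controls (0.27, SE 0.08, edgeR adjusted p = 0.133). Of 22 regulators of growth and ribosome stress 19 were above 0 (median 0.10). Among them were Tsc1 and gig, which together restrain the Tor kinase, with log2 fold changes of 0.27 (edgeR adjusted p = 0.132) and 0.31 (edgeR adjusted p = 0.183). Of 72 mitochondrial ribosomal protein genes 49 were above 0 (median 0.04), and mRpL39 had the smallest p (log2 fold change 0.31, edgeR adjusted p = 0.156).

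Of the 79 main copies 29, and of the 13 minor paralogues 0, hold small nucleolar RNA genes on their own strand, 72 in all, a class of RNA that guides the modification of ribosomal RNA. The exons of the main copies, joined over transcripts, had a median length of 944 bases. A gene on the opposite strand overlaps 26 of the 92 members, and 6 share their strand with another gene that is not a small nucleolar RNA gene. The library kit preserves strand. Whether the counting used it is not stated in the sources used here, and without it a gene's reads and those of such a partner cannot be told apart.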

How the data were processed

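The gene family and the other gene lists were picked with earlier results of these data known, and membership of the family follows gene names alone. Whole-fly poly(A) libraries were sequenced on a NovaSeq, per the labels. The deposited counts are whole reads per gene and library, made by the authors. Per the submitters' processing notes the tools were STAR 2.6.1b, cutadapt 1.16 and featureCounts 1.6.3 and DESeq2 in versions 1.22.2 and 1.20.0, and the builds dm6 and BDGP6, with no roles stated. The handling of reads that match several genes is not stated.

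Genes with enough counts (filterByExpr, minimum count 10) were fitted in edgeR 4.0.16 (R 4.3.3) with TMM scaling, quasi-likelihood tests and Benjamini-Hochberg adjustment over 13274 genes, called at 0.05. DESeq2 1.42.0 was an alternative. The authors' deposited table of log2 fold changes, p-values and test statistics (a score) was only quoted. Exon lengths come from the Ensembl 115 annotation of BDGP6, in which 91 of 92 members have the deposited coordinates.

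Libraries were grouped by title. Numbers in the authors' sample sheet pair 4 libraries of each genotype: deviations from group means correlated at 0.207 to 0.277 within pairs and at most 0.0402 otherwise. A fit with these pairs as a block leaves out control replicate 3. Replicates differed beyond sampling noise (chi-square per degree of freedom 17.3 to 42.9). Of 224 listed symbols 221 were matched. Members were named by role, by smallest p, by paralogue pair and by the ends of the TPM order, with exceptions given where they occur, and genes of other lists by smallest p. Alternatives were other scalings and filters, DESeq2, the block, groups taken from the genotype tag, only the libraries with matching labels, and leaving out each library. The values of 1 main copy enter all sums, counts and ranges and are not reported by name here.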

Additional observations from a re-analysis of the deposited data

Results flagged for a closer look

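In 116 sets of 4 or 5 values (each named member, sum and ratio within a group), the highest or lowest library was checked for a gap to its neighbour beyond Dixon's limit at 95%, and chance alone is expected to mark about 1 in 20. Control replicate 2 lay far above the other controls for the summed CPM of all members (48825) and of the main copies (48407), for RpL24 (485.2 CPM), RpL34b (322.6 CPM), RpS19a (525.4 CPM), RpS27A (698.9 CPM), RpS21 (209.6 CPM) and RpS6 (768.8 CPM). Among E78A mutants, replicate 4 lay far below the others for RpS6 (692.5 CPM), and replicate 3 far above them for RpS14a (255.7 CPM) and RpS21 (220.0 CPM). Among the paralogues, RpL24-like was far higher in control replicate 4 (104.1 CPM). The count of RpS15Ab was 6.79% of that of RpS15Aa in E78A mutant replicate 2, above the other mutants, and the count of RpL22-like was 11.7% of that of RpL22 in control replicate 3, above the other controls. Genes that move together share these libraries, so the marks are not separate.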

How the results depend on the processing

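No member was called by edgeR under any alternative, and DESeq2 called 1, RpL3. Over all genes, edgeR called 94 higher and 123 lower in E78A mutants, DESeq2 called 235 and 265, and edgeR with the sample sheet's pairs as a replicate block called 239 and 261, again with 0 members. Under the block 10 members had an unadjusted p under 0.05. Leaving out 1 library at a time gave 53 to 139 genes higher and 74 to 152 lower, and a median log2 fold change of the members of 0.07 to 0.13. Grouping by the genotype tag, which moves 4 libraries, left 0 genes called higher and 0 lower (171 at an unadjusted p under 0.05), a median of -0.0105 over the members and a log2 ratio of their summed level of -0.00716. The 5 libraries whose labels agree gave 13 genes higher and 8 lower, with fewer samples. Other scalings and low-count filters changed no call among the members and no direction among the named ones. At an adjusted p under 0.01, DESeq2 called 0 members.

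The genotype tag exchanges control replicates 4 and 5 with E78A mutant replicates 3 and 4. If the titles are right, each group so formed holds both genotypes, and its signs say little about a member. Of 42 named members, 20 changed sign with the genotype tag, among them some of the higher log2 fold changes by title, such as RpLP0-like, RpL38 and RpS19a. They were RpL10Ab (-0.0272), RpL37b (0.159), RpLP0-like (-0.0207), RpS5b (0.0993), RpS5a (-0.0336), RpS10b (-0.0429), RpS14a (-0.0715), RpS15Aa (-0.0234), RpS19a (-0.00638), RpS28b (-0.0336), RpS23 (-0.00347), RpL41 (-0.0168), RpLP2 (-0.0446), RpS27A (-0.0168), RpL27A (-0.00812), RpL28 (-0.0470), RpL38 (-0.0797), RpS21 (-0.112), RpS3 (-0.0339) and RpL40 (-0.00102). In the 5 libraries they were RpL37b (0.0349), RpS5b (0.0854), RpS14a (-0.0480) and RpS21 (-0.00513), and under the replicate block RpS5b (0.0413), RpS10a (0.00438) and RpS14a (-0.00424). Without 1 library the ranges that crossed 0 were -0.0136 to 0.214 for RpL24-like, -0.119 to 0.0466 for RpS5b, -0.143 to 0.0409 for RpS10a -0.0444 to 0.0202 for RpS14b, -0.0281 to 0.0633 for RpS14a and -0.00326 to 0.0777 for RpLP2. The cause was not tested.

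At this depth the 95% interval of RpS28a, the member with the fewest counts, ran from -0.98 to 0.23, and the intervals of the main copies reached at most 1.32-fold. These intervals take the titles as right.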
